A study of Saccharomyces cerevisiae with 15 samples.

Results

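The transcriptome of budding yeast exposed for 1 h to 8 µM ytterbium (Yb), a heavy rare earth metal, was set against that of untreated yeast. Both groups were Saccharomyces cerevisiae BY4741, a haploid laboratory strain of mating type a with deletions of HIS3, LEU2, MET17 and URA3, grown in yeast nitrogen base with β-glycerophosphate, a phosphate ester. The labels call 8 µM the EC50, the dose with 50 percent effect, and there were 3 libraries each (Yb EC50 libraries 4, 5 and 6, and control libraries 1, 2 and 3), 6 of the 15 in the series. Further groups of 3, also exposed for 1 h, were Yb at 6 µM (EC10) and lanthanum (La), a light rare earth metal, at 160 µM (EC50) and 50 µM (EC10). All 15 libraries entered the fit behind the p-values and the principal components. Yb EC10 and La EC50 are compared with Yb EC50 at the end, and La EC10 is not compared. The columns were taken by name, and a gene was tested where its mean over the 6 libraries was at least 10, which kept 5559 of 6600 identifiers. The 1041 others lay below that level, which YNR025C (10.01) just passed and YGL258W-A (9.95) just missed. Whether the libraries of a group are separate cultures is not in the labels, and the p-values may reflect technical spread alone.

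Trivalent rare earth ions resemble calcium in size and bind phosphate groups and carboxylates. Yeast meets many insults with a shared response, in which the transcription factors Msn2 and Msn4 bind the stress element AGGGG once protein kinase A activity drops, and genes for ribosomes fall in step. Damage to the wall is sensed at the cell surface and relayed through Rho1, Pkc1 and the kinase Slt2 to the factor Rlm1, while cytosolic calcium acts through the phosphatase calcineurin on the factor Crz1. Inositol made by Ino1 feeds phosphatidylinositol, and INO1 is the classical target of the activators Ino2 and Ino4, which bind the inositol element with the core CATGTG.

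The promoters of INO1 and HSP12 are shown because these genes rose most among the lipid and the heat shock genes, and those of PIR3, CMK2 and EFG1 because they stand for the wall, calcium and ribosome assembly genes below. Each runs from 250 bases before to 50 bases after the start codon, 5′ to 3′ on the strand of the gene, from the RefSeq genome of build R64. Capitals mark matches on either strand to 11 motifs searched, whose letters are given beside the results.
INO1, chrX:135884-136183, minus strand: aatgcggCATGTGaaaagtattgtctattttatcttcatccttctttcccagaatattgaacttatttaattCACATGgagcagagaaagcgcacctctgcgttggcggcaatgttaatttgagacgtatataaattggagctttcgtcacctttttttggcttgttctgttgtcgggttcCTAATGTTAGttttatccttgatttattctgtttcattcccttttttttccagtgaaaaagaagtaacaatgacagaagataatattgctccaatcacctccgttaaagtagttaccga
HSP12, chrVI:107006-107305, plus strand: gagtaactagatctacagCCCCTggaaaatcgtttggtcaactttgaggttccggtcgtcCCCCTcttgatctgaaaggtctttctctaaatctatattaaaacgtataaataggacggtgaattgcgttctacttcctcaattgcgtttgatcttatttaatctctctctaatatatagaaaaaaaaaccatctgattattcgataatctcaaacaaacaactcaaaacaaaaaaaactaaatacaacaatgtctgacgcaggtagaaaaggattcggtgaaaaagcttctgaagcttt
PIR3, chrXI:144151-144450, plus strand: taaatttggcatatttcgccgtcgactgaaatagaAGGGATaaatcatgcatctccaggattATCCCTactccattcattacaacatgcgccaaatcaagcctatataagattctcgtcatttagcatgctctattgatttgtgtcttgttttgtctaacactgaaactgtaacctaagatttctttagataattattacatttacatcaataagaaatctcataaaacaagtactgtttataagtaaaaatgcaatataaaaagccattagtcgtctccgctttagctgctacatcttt
CMK2, chrXV:296071-296370, minus strand: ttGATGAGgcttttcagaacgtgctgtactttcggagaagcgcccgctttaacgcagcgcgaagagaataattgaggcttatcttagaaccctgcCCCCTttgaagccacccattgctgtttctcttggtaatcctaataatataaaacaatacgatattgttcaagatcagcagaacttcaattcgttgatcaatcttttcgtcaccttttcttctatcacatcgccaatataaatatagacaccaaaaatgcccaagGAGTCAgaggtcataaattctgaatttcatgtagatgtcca
EFG1, chrVII:1038452-1038751, minus strand: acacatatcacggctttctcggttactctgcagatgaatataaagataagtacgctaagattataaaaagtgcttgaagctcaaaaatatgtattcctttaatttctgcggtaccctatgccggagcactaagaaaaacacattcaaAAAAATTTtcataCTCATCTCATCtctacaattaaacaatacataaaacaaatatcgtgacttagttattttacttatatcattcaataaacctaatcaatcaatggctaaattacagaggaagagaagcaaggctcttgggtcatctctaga
The INO1 promoter held CATGTG beginning 243 and, on the other strand, 178 bases before the start codon, and the Rlm1 site CTANNNNTAG at 69 bases before it. AGGGG stood on the other strand 2 times in HSP12 and 1 time in CMK2, and the post-diauxic element AGGGAT 2 times in PIR3. CMK2 also held GATGAG, the PAC element of ribosome biogenesis genes, and the Gcn4 site TGACTC. EFG1 held GATGAG 2 times on the other strand, overlapping by a base, and AAAAATTT, the ribosomal RNA processing element, 1 time. A match describes these letters and is not a bound site.

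The Yb EC50 libraries held 6372092 to 6895514 reads and the control libraries 5629666 to 6478993, recovered from the deposited values. The normalized totals were 6038733 to 6284052 at Yb EC50 and 6719917 to 6895223 in control. URA3, LEU2 and MET17 had no read in any of the 6 libraries, as their deletion requires, where 0 reads allow up to 2.73 to 3.67 normalized counts. HIS3, whose deletion in this strain is known to remove only part of the gene, had 398, 384 and 436 normalized counts in the Yb EC50 libraries, against 507, 470.5 and 486 in the control libraries, which checks nothing. The mating type a receptor gene STE2 lay between 3854 and 6130 in them, and the α-factor genes MF(ALPHA)1 and MF(ALPHA)2 at 11.7 or less. STE3 and SAG1, also set as low markers of the α type, reached the level for testing, and their values are not shown. Low α-type expression was therefore seen for the α-factor genes alone. Of the 8 strain markers 3 reached the level for testing, HIS3, STE3 and SAG1. On the leading principal component of the 15 libraries, with 46.2% of the variance, Yb EC50 libraries lay at -24.64, -16.93 and -17.23 and control libraries at 14.01, 18.03 and 18. Yb EC50 library 4 stood apart from the other 2 of its group, so counts above 3 that moved by over 1.5 times without it are also given without it.

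Of the 5559 genes, 2272 (40.9%) differed between Yb EC50 and control cells in limma at a Benjamini-Hochberg adjusted p under 0.05, the threshold for every call below. There were 1145 rises (20.6%) and 1127 falls (20.3%), yet large changes ran mostly upward. The shares of 20.6% and 20.3% are the background for the list counts below. Lists and members were chosen with earlier results of these data known, so their counts are descriptive and no independent support. At least 2-fold higher were 240 genes (4.32%), 58 of them at least 4-fold and 13 at least 8-fold, against 26 genes (0.468%) at least 2-fold lower. The median rise was 0.48 and the median fall -0.36 on the log2(normalized count + 1) scale used for all changes, which understates the change of low genes, and the median over all genes was -0.022. Scaling each library to an equal total moved that median by 0.135 and gave 1752 rises and 472 falls, so 78.8% of calls were higher, against 50.4% here. Without Yb EC50 library 4 there were 859 rises and 655 falls. Genes named below for the largest changes had to have group ranges apart, so that trait is no further support for them.

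**Figure D1:**
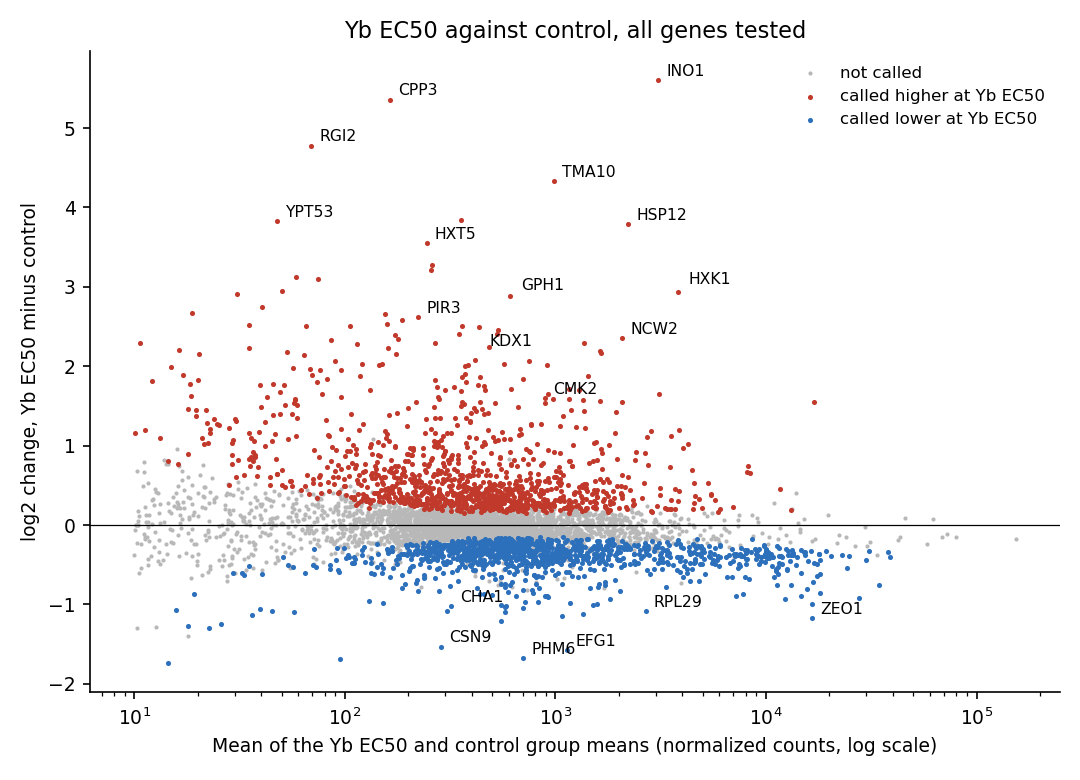
Each point is 1 of 5559 genes, with any gene for which no result is reported here left out. The x axis gives the mean level over the 6 libraries and the y axis the log2 change, Yb EC50 minus control. Colours mark genes called higher or lower. The upper side reaches 5.61 at INO1 while the lower side ends at -1.74.

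INO1 (YJL153C, chromosome X, 134332 to 135933, minus strand), which encodes inositol-3-phosphate synthase, rose more than any other gene. It had 6803, 5920.3 and 5308 normalized counts in the Yb EC50 libraries, against 125, 113 and 127 in the control libraries. All 3 Yb EC50 libraries lay far above all control libraries, a 49.3-fold difference of means and a log2 change of 5.61 ± 0.11 (limma, adjusted p = 1.12e-14). Of the 8 genes tested for inositol supply, 4 rose and 1 fell. The inositol transporter gene ITR1 rose by 0.65 and the activator gene INO4 by 0.69, while INO2 (-0.095) and the repressor gene OPI1 (0.016) were not called. INM1, an inositol monophosphatase, fell by 0.45. Among 22 genes of phospholipid synthesis 6 rose and none fell, with a median of 0.03, close to that of all genes, and without Yb EC50 library 4 the rises were 4. These were small beside INO1. OPI3 and CHO2, which methylate phosphatidylethanolamine to phosphatidylcholine, changed by 0.70 and 0.32, and CHO1, phosphatidylserine synthase, by 0.47. CATGTG stood in 40.9% of the promoters of that list, against 6.79% of the 5478 promoters of tested genes. Among promoters of genes at least 2-fold higher its share was 7.95%.

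Genes known from general stress and from growth after glucose runs out rose almost throughout. Of 34 such genes, chosen with earlier results of these data known, 33 rose and none fell, with a median change of 1.52. Together they took 0.417 ± 0.0713% of reads in Yb EC50 cells and 0.132 ± 0.011% in control cells (SD, n = 3 each). In bulk RNA, more cells with a transcript and more of it per cell cannot be told apart. HSP12 (YFL014W, chromosome VI, 107256 to 107585, plus strand), a small membrane-associated heat shock protein, had 5034, 3994 and 3314 normalized counts in the Yb EC50 libraries, against 469.8, 224 and 238 in the control libraries. The lowest Yb EC50 library lay above the highest control library, control library 1, and the log2 change was 3.79 ± 0.35 (adjusted p = 7.88e-07). RGI2, a gene of respiratory growth, had 154, 154 and 96.4 normalized counts in the Yb EC50 libraries, against 4.15, 5.32 and 2.45 in the control libraries, and TMA10, whose product associates with ribosomes, had 2350.3, 1746 and 1529.5 normalized counts in the Yb EC50 libraries, against 142, 70.2 and 74.7 in the control libraries. Both groups were again fully apart for each, with changes of 4.78 ± 0.56 and 4.33 ± 0.27, and the size of the RGI2 change depends on the few control reads. Smaller but also at least 4-fold were the rises of RTC3 (3.84), DDR2 (2.66), DCS2 (2.58), FMP16 (2.54), SPG4 (2.51) and SPI1 (2.35), a cell wall protein of stressed cells. Outside the list CPP3 (YDR034W-B, chromosome IV, 521314 to 521469, plus strand) had 353, 341 and 265 normalized counts in the Yb EC50 libraries, against 11.4, 4.26 and 6.12 in the control libraries, a change of 5.36 ± 0.28, and the butanediol dehydrogenase paralog BDH2 rose by 3.21.

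Of the small heat shock proteins and disaggregases, 5 of 7 rose, among them HSP42 (1.54) and the disaggregase HSP104 (0.54). HSP26 did not pass the test (0.84 ± 0.35, adjusted p = 0.0673), with 1171, 559 and 615 normalized counts in the Yb EC50 libraries, against 530.0, 335 and 397 in the control libraries. Yb EC50 library 4 was high and the other 2 lay just above control library 1. Among 24 Hsp70, Hsp90 and partner genes only 2 rose and 2 fell in this fit, with a median of -0.03 that turned to 0.10 with equal totals, where 9 rose and 0 fell. With quantile normalization 6 rose. SSE2, an Hsp70 exchange factor, rose by 0.75, and the heat-inducible SSA4 was not called (-0.055). Of 24 antioxidant genes 12 rose, led by the cytosolic catalase CTT1 (1.59) and the mitochondrial peroxiredoxin PRX1 (1.15). Superoxide dismutase SOD1 (-0.12), thioredoxin reductase TRR1 (-0.13) and the peroxiredoxin TSA1 (0.082) were not called, and the peroxidase GPX2 fell by 0.66.

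Fewer regulators than effectors of this response were called. Of 15 stress regulators 6 rose and 1 fell (0 with equal totals or without Yb EC50 library 6, 2 with quantile normalization). XBP1, a repressor induced by stress and starvation, had 140.3, 126 and 138 normalized counts in the Yb EC50 libraries, against 16.6, 15.97 and 12.2 in the control libraries, which put the groups apart by a log2 change of 3.10 ± 0.26. The zinc finger factor USV1 rose by 1.87 and the kinase YAK1 by 0.63, while MSN4 rose by 0.29 and MSN2 (-0.019), HSF1 (0.14) and YAP1 (-0.028) were not called. In the Ras and protein kinase A pathway 7 of 16 genes rose (4 without Yb EC50 library 4) and 3 fell (0 with equal totals). Of the catalytic subunit genes, TPK2 rose by 0.63 and TPK3 changed by -0.31, and the inhibitory subunit BCY1 rose by 0.54. Of 21 genes of glycerol and the Hog1 pathway 10 rose, with GCY1 (1.34) and glycerol-3-phosphate dehydrogenase GPD1 (0.95) among them, and HOG1 itself by 0.28.

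**Figure D2:**
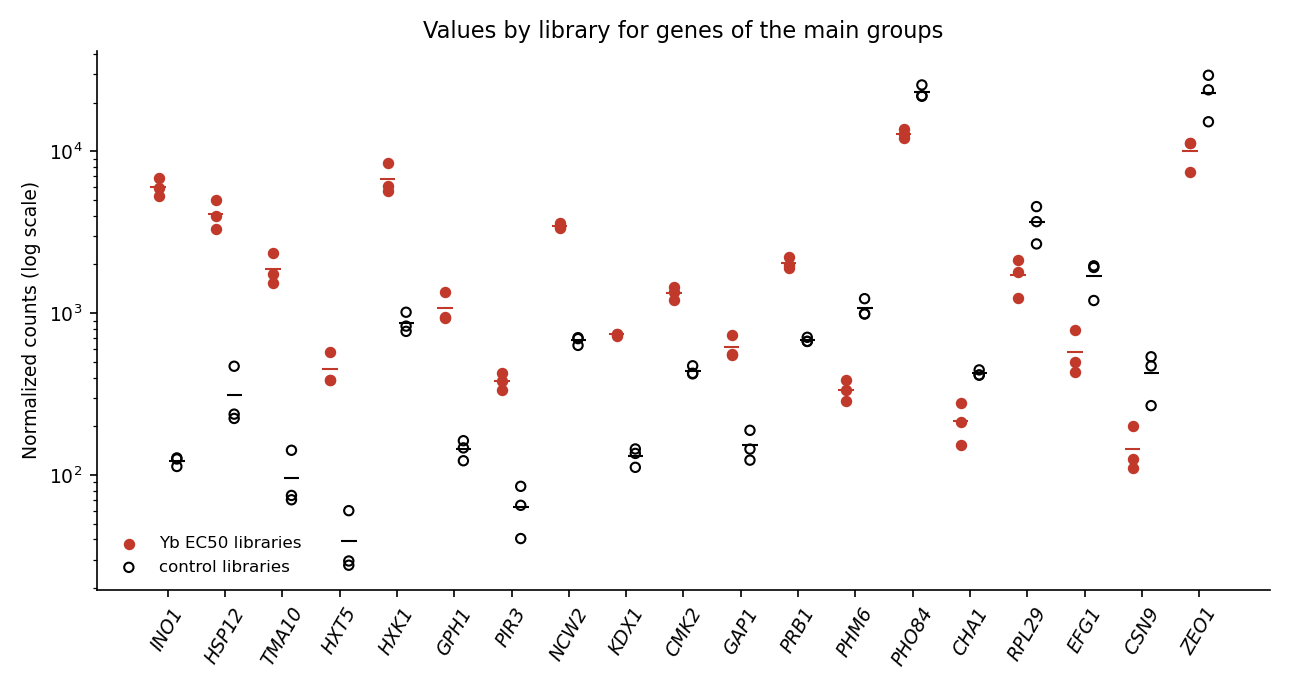
Normalized counts on a log scale (y axis) for genes of the main groups (x axis), with filled points for the 3 Yb EC50 libraries, open points for the 3 control libraries and bars for the means. INO1 stands at 6803, 5920.3 and 5308 at Yb EC50. In no gene shown do the groups overlap, which for genes named by the size of their change was a condition of naming.

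Genes for both the synthesis and the breakdown of storage carbohydrates rose. All 7 genes of trehalose rose (median 1.03), both the synthase subunits TSL1 (1.84), TPS2 (1.44) and TPS1 (1.05) and the trehalases NTH1 (1.03) and ATH1 (0.63). Of 15 genes of glycogen 11 rose and none fell (median 1.26). Glycogen phosphorylase GPH1, which degrades the polymer, had 1353, 927 and 948 normalized counts in the Yb EC50 libraries, against 163, 122 and 147 in the control libraries. It lay apart by 2.88 ± 0.26 (adjusted p = 5.17e-07), and the synthase GSY1 (2.41), the branching enzyme GLC3 (2.08), the debranching enzyme GDB1 (1.55) and GAC1 (2.52), which directs phosphatase to glycogen synthase, rose with it. GIP2 (2.03) and GSY2 (1.26) did too, while the self-glycosylating primer gene GLG2 (0.085) was not called.

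Some genes of glucose transport and phosphorylation rose. Of 17 hexose transporter genes 9 were tested, 6 rose and 2 fell. HXT5, a transporter of slow-growing cells, had 577, 385 and 387 normalized counts in the Yb EC50 libraries, against 60.2, 27.7 and 29.4 in the control libraries, a change of 3.55 ± 0.38. The high-affinity genes HXT7 (2.16), HXT6 (0.82), HXT4 (1.26) and HXT2 (0.54) rose, the first pair being near-identical copies whose reads are uncertain. The low-affinity transporter HXT1 fell by 0.36, and HXT3 was not called (-0.15). Without Yb EC50 library 4 the list had 4 rises and 1 fall, and with equal totals or without control library 2 it also had 1 fall. Among 22 genes of glycolysis and its control 6 rose, or 27.3%, near the 20.6% of all genes. They were the hexose kinase genes HXK1, GLK1 (1.88) and EMI2 (0.94), PFK26 (0.88), PYK2 and GPM2. The abundant enzymes were not called: TDH3 (-0.18), GPM1 (-0.15), ENO2 (-0.11), CDC19 (-0.15) and FBA1 (0.071), which with PDC1 (-0.24), TPI1 (-0.15), PGK1 (-0.19), the wall protein CCW12 (0.085) and RPL3 (-0.34) had the highest levels at Yb EC50. Of those 10 only RPL3 was called in this fit, as a fall. The respiratory activator gene CAT8 rose by 1.83 and MTH1, which represses hexose transporter genes, by 0.94, while SNF1 (0.018) and ICL1 (0.071) were not called.

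In each of 14 isoenzyme pairs the form listed first rose by at least 0.95, while the change of its partner was at most 0.32 in size in all but glycogen synthase, where GSY2 rose too. The pairs were chosen with these results known. HXK1 had 8439, 5683 and 6083 normalized counts in the Yb EC50 libraries, against 1013, 772 and 832 in the control libraries, while its paralog HXK2 had 13442, 14013 and 14562 normalized counts in the Yb EC50 libraries, against 13676, 15266 and 15755 in the control libraries. Only the HXK1 values were apart, with a change of 2.94 ± 0.22, against -0.087 ± 0.088 for HXK2. In the pentose phosphate pathway NQM1 rose by 3.28 beside 0.16 for the transaldolase TAL1, SOL4 by 2.19 beside SOL3 (0.14), GND2 by 1.89 beside GND1 (0.30), and the transketolase TKL2 by 1.77 beside TKL1 (-0.06). NDE2, an external NADH dehydrogenase of mitochondria, rose by 2.75 beside NDE1 (0.18), the cytochrome c gene CYC7 by 1.21 beside CYC1 (-0.17), and PYK2 by 1.04 beside the pyruvate kinase CDC19. Per length, NQM1 made up 7.02% of its pair at Yb EC50, against 0.876% in control, and HXK1 32.5%, against 5.54% in control. By group means the first form was the larger part of its pair at Yb EC50 only for GPD1, at 63.0%, against 46.7% in control, and for the phosphoglucomutase gene PGM2, at 52.1%, against 22.5% in control. In Yb EC50 libraries 4, 5 and 6 PGM2 made up 58.5%, 45.5% and 50.8%, so PGM1 was the larger part in library 5. The forms of a pair are close in sequence, and how the counting treated shared reads is not given in the sources used here.

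**Figure D3:**
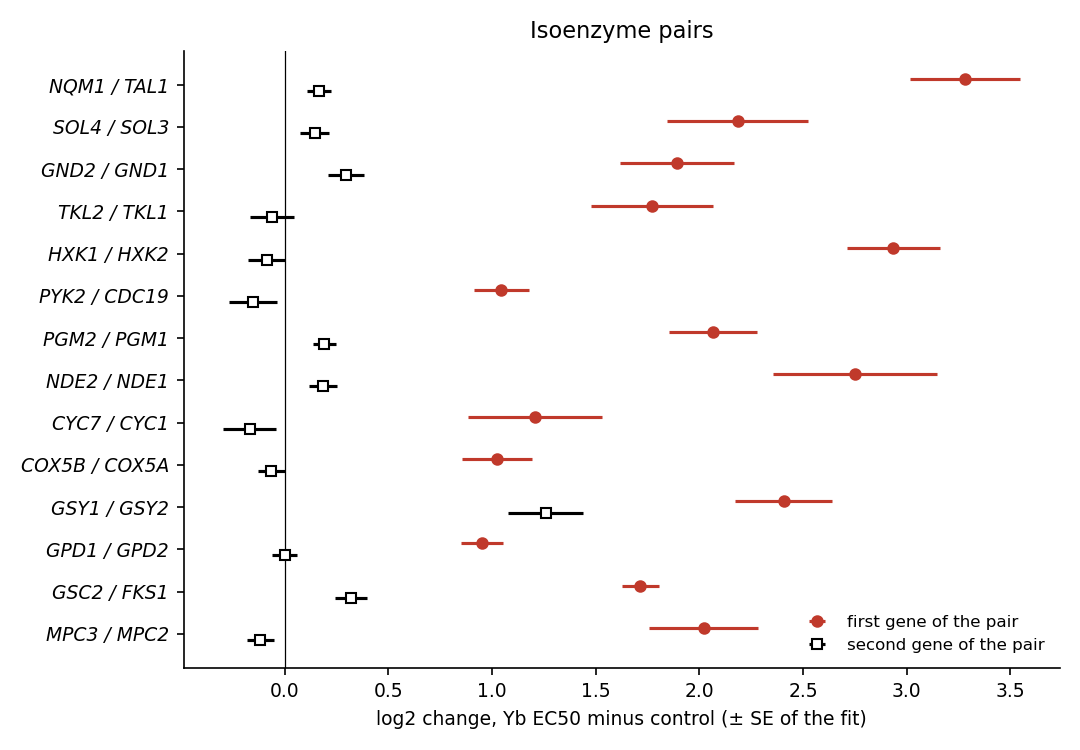
The log2 change, Yb EC50 minus control, with the SE of the fit (x axis) is drawn for the first gene (filled circles) and the second gene (open squares) of 14 isoenzyme pairs (y axis). Every first gene lies right of its partner, from MPC3 (2.02) beside MPC2 (-0.12) to NQM1 (3.28) beside TAL1 (0.16).

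Mitochondrial and peroxisomal energy genes rose in part. Of 16 genes of the citrate cycle 11 rose, among them LSC2 of succinyl-CoA ligase (0.92), the succinate dehydrogenase genes SDH4 (0.84) and SDH1 (0.77), and citrate synthase CIT1 (0.70). Of 35 genes of the respiratory chain and ATP synthase 16 rose and none fell, with a median of 0.14, and 10 rose without Yb EC50 library 4. Of 19 genes of fatty acid oxidation and peroxisomes 12 rose (median 0.63). POT1, the peroxisomal thiolase, had 66.3, 65.2 and 33.7 normalized counts in the Yb EC50 libraries, against 7.26, 8.52 and 3.67 in the control libraries, and POX1, the acyl-CoA oxidase of the first step, had 133, 98.8 and 102 normalized counts in the Yb EC50 libraries, against 18.7, 23.4 and 14.7 in the control libraries. Both were low in control and several-fold higher in every Yb EC50 library (2.91 ± 0.48 and 2.50 ± 0.26), while the oleate factors OAF1 (-0.15) and PIP2 (0.14) were not called. The glyoxylate and gluconeogenesis genes ICL1, MLS1 (0.12) and PCK1 (0.07) were not called, and 3 of 11 in that list rose, the lactate carrier JEN1 (1.12), ACS1 (0.89) and MDH2 (0.27). That share of 27.3% was near the 20.6% of all genes.

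Parts of the cell wall integrity pathway and several of its known targets rose. Of 27 genes from sensors to factor 11 rose and 4 fell (1 with equal totals). At the surface MTL1 (0.80) and MID2 (0.44) rose, WSC4 fell by 0.76, and WSC2 (0.13) and WSC3 (0.021) were not called. Of the relay, RHO1 (0.38) and its exchange factor ROM1 (0.48) rose, PKC1 (0.02), BCK1 (-0.14) and MKK2 (-0.029) were not called, and MKK1 fell by 0.21. The kinase SLT2 had 1414, 1404 and 1365 normalized counts in the Yb EC50 libraries, against 409, 494 and 432 in the control libraries, fully apart by 1.65 ± 0.09. Its paralog KDX1 had 748, 743 and 725 normalized counts in the Yb EC50 libraries, against 136, 145 and 111 in the control libraries, with very little spread and a change of 2.50 ± 0.11 (adjusted p = 1.45e-10). The factor gene RLM1 rose by 1.04, and the phosphatases that act on the kinase rose as well, PTP2 by 1.47, SDP1 by 0.83 and MSG5 by 0.40. The Rlm1 site CTANNNNTAG was in 5.86% of promoters of genes at least 2-fold higher, against 5.64% of all.

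Of the 5 PIR genes, whose products bind the wall glucan directly, 4 rose. PIR3 (YKL163W, chromosome XI, 144401 to 145378, plus strand) had 425, 334 and 383 normalized counts in the Yb EC50 libraries, against 85.05, 40.4 and 64.9 in the control libraries, all apart (2.62 ± 0.19), and PIR5 (1.26), HSP150 (0.75) and CIS3 (0.38) followed, with PIR1 not called (0.063). Among 22 other mannoprotein genes 7 rose, led by NCW2 (2.35), CWP1 (1.65), SED1 (1.56) and PST1 (1.19). The list median was only 0.08 and turned to -0.11 with quantile normalization. Of 28 genes of glucan, chitin and crosslinking 17 rose (median 0.35). GSC2, the inducible glucan synthase, had 1942, 1743 and 1626 normalized counts in the Yb EC50 libraries, against 530.0, 544 and 538 in the control libraries, a change of 1.71 ± 0.09, beside 0.32 for the constitutive FKS1. CRH1, which joins chitin to glucan, rose by 0.97, GFA1, the entry enzyme to chitin precursors, by 0.91, and the chitin synthase genes CHS1 by 0.63 and CHS3 by 0.33. Of 6 yapsins, surface proteases, 4 rose, with YPS6 (2.23) and YPS3 (1.80) in front, and MKC7 fell by 0.33. Of 20 eisosome and membrane domain genes 9 rose, PUN1 (2.17) and FMP45 (1.96) most, and SUR7, a marker protein of these domains, fell by 0.57.

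Some calcium genes rose and the channels did not pass the test. Of 9 channels and pumps 3 rose and 1 fell. PMC1, the vacuolar calcium pump, had 931, 901 and 873 normalized counts in the Yb EC50 libraries, against 499.9, 507 and 512 in the control libraries, apart by 0.83 ± 0.10, and the Golgi pump PMR1 rose by 0.28. The channel genes CCH1 (-0.0025), MID1 (-0.021) and YVC1 (-0.0056) and the exchanger VCX1 (0.085) were not called. In the calcineurin pathway 7 of 11 genes rose, or 4 without Yb EC50 library 4. The calmodulin-dependent kinase CMK2 (YOL016C, chromosome XV, 294777 to 296120, minus strand) had 1457, 1350.1 and 1209 normalized counts in the Yb EC50 libraries, against 473, 421 and 425 in the control libraries, with no overlap and a change of 1.60 ± 0.092 (adjusted p = 4.21e-09). The calcineurin regulators RCN2 and RCN1 rose by 1.55 and 1.06 and the catalytic subunit CMP2 by 0.77, while CNA1 (-0.074) and CRZ1 (0.075) were not called. The sodium pump ENA1, another known calcineurin target with near-identical neighbours, had 755, 654 and 585 normalized counts in the Yb EC50 libraries, against 202, 206 and 175 in the control libraries, a change of 1.76 ± 0.14. Of the ion transport list 4 of 14 rose and 4 fell, or 28.6% each, against 20.6% and 20.3% of all genes. These counts became 2 and 2 without Yb EC50 library 4, with 2 falls also with equal totals. The falls included the plasma membrane proton pump PMA1 (-0.40).

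Genes of the phosphate starvation system were lower at Yb EC50. Of 16 genes of phosphate transport and signalling 9 fell and 1 rose, with a median of -0.24. PHM6 (YDR281C, chromosome IV, 1022007 to 1022321, minus strand), a phosphate-regulated gene, had 286, 387 and 335 normalized counts in the Yb EC50 libraries, against 1229, 988 and 992 in the control libraries. Every Yb EC50 library lay below every control library, with a change of -1.67 ± 0.19 (adjusted p = 7.26e-06). The high-affinity transporter PHO84 had 12091, 13702 and 12807 normalized counts in the Yb EC50 libraries, against 21902, 25746 and 22093 in the control libraries, also apart (-0.85 ± 0.086), and SPL2, a regulator of low-affinity uptake, fell by 1.05. The cyclin-dependent kinase inhibitor PHO81 fell by 0.44 and the activator PHO4 by 0.32, PHO80 (-0.088) was not called and PHO85 rose by 0.23. Of 17 phosphatase and polyphosphate genes 8 fell and 1 rose (median -0.37). The polyphosphate polymerase complex genes VTC3 (-0.66), VTC1 (-0.62), VTC4 (-0.49) and VTC2 (-0.43) and the vacuolar phosphatase PHO8 (-0.61) fell, as did the near-identical PHO12 (-0.84) and PHO11 (-0.60). The secreted phosphatase PHO5 did not pass the test (-0.41 ± 0.16), with 5243, 7082 and 6007 normalized counts in the Yb EC50 libraries, against 7439, 8644 and 8070.2 in the control libraries, although the groups did not overlap. The Pho4 site CACGTG was in 31.2% of promoters of the transport list and in 3.3% of promoters of called falls, against 2.96% of all. PHM6, whose promoter is not shown above, held no match to it or to any other motif searched.

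Of 28 iron uptake genes 3 fell, the high-affinity pair FET3 (-0.71) and FTR1 (-0.77) and the reductase FRE1 (-0.74), and none rose. Falls made up 10.7% of that list, below the 20.3% of all genes. The list median was -0.12, or 0.02 with equal totals, and quantile normalization gave 5 falls. In the zinc, copper and manganese list 3 of 20 rose and 3 fell (1 fall with equal totals or without Yb EC50 library 6), with the vacuolar zinc transporter ZRC1 at -0.46 and the copper factor CUP2 at 0.55.

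Genes of the vacuole and of nitrogen supply rose in part. YPT53, a Rab5-type GTPase of endocytic traffic, had 107, 80.6 and 80.1 normalized counts in the Yb EC50 libraries, against 6.22, 6.39 and 3.67 in the control libraries, a change of 3.83 ± 0.33, while its relatives VPS21 (-0.014) and YPT52 (0.091) were not called. Of 31 genes of autophagy and vacuolar hydrolysis 21 rose (median 0.44). The vacuolar protease PRB1 had 2235, 1891 and 1975 normalized counts in the Yb EC50 libraries, against 709, 668 and 670.0 in the control libraries, apart by 1.57 ± 0.12, and the mannosidase AMS1 (1.998), the protease PEP4 (1.12), the ubiquitin-like ATG8 (1.35) and the receptor genes ATG39 (1.53) and ATG40 (0.88) rose with it. The general amino acid permease GAP1 had 734, 561 and 553 normalized counts in the Yb EC50 libraries, against 189, 123 and 145 in the control libraries, a change of 2.02 ± 0.20. Of the 32 permease and nitrogen genes 10 rose, PUT4 (1.34), AGP1 (1.19) and the ammonium transporter MEP1 (1.09) among them, and 7 fell (2 with equal totals and 3 without control library 2). The 10 rises and 7 falls were 31.2% and 21.9%, against 20.6% and 20.3% of all genes. Of 58 amino acid synthesis genes 28 fell and 6 rose. The falls became 15 with equal totals and 15 without Yb EC50 library 4, and the rises 11 with equal totals. CHA1, which degrades serine and threonine, had 154, 280.2 and 212 normalized counts in the Yb EC50 libraries, against 415, 446 and 414 in the control libraries, apart by -1.02 ± 0.15, and LYS20 (-0.74) and ARG3 (-0.73) fell, while glutamine synthetase GLN1 rose by 1.02.

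The falls were small and broad and centred on the ribosome. Of 81 genes for cytosolic large subunit proteins 78 fell (median -0.40), and of 57 for the small subunit 56 fell (median -0.45), with none rising in either. The large subunit genes took 10.4 ± 0.627% of reads in Yb EC50 cells and 12.8 ± 0.457% in control cells, and the small subunit genes 8.85 ± 0.569% and 11.4 ± 0.149% (SD, n = 3 each). With quantile normalization the falls were 28 and 27, the medians -0.14 and -0.19, and the median of all genes -0.058. RPL29 had 1248, 2128 and 1788 normalized counts in the Yb EC50 libraries, against 4555, 2679 and 3678 in the control libraries, a change of -1.08 ± 0.27 (adjusted p = 0.00565). Duplicated ribosomal protein genes share reads and their single values are uncertain.

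Ribosome assembly genes followed. Of 55 genes of the small-subunit processome and 40S assembly 50 fell (median -0.38) and of 65 for the large subunit 55 fell (median -0.40). These counts rested much on Yb EC50 library 4, whose median deviation from the control mean over the small-subunit list was -0.58, against -0.27 and -0.33 in libraries 5 and 6. Without it 21 genes of each list fell, with medians of -0.29 and -0.30. Equal totals gave 23 and 29, leaving out control library 3 gave 31 and 32, and leaving out control library 2 gave 35 for the large subunit. EFG1 (YGR271C-A, chromosome VII, 1037800 to 1038501, minus strand), needed for 18S ribosomal RNA maturation, had 435, 792 and 496 normalized counts in the Yb EC50 libraries, against 1961, 1197 and 1917 in the control libraries. The groups did not overlap and differed by -1.57 ± 0.34 (adjusted p = 0.00201). CGR1 fell by 1.21, LOC1 by 0.85, NSA2 by 0.74 and NIP7 by 0.64. GATGAG was in 90.9% and AAAAATTT in 81.8% of promoters of the small-subunit list, against 19.9% and 15% of all tested, and in 35.5% and 30.7% of promoters of called falls.

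Of 29 genes of RNA polymerases I and III 17 fell, led by RPC17 (-1.09) and RPC11 (-0.71), or 10 each with equal totals and without Yb EC50 library 4. Among 34 translation factors 18 fell, among them TIF11 (-0.43) and TIF4631 (-0.38), which became 6 without Yb EC50 library 4, 7 with equal totals, 11 with quantile normalization, and 10 and 11 without control libraries 2 and 3. The 11 falls among 21 aminoacyl-tRNA synthetases, such as ALA1 (-0.33), became 1 without Yb EC50 library 4, 5 and 4 without control libraries 2 and 3, 6 with quantile normalization and 0 with equal totals. Of 11 histone genes 8 fell, HHF1 (-0.49) and HTA2 (-0.46) most, or 5 with equal totals and 4 with quantile normalization.

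The largest falls were of short genes with varied tasks. Of 26 genes at least 2-fold lower, 22 had an annotated coding length, with a median of 468 bases, against 1098 bases for genes at least 2-fold higher and 1245 for all. CSN9 (YDR179C, chromosome IV, 818708 to 819196, minus strand), a subunit of the COP9 signalosome, had 111, 199.6 and 126 normalized counts in the Yb EC50 libraries, against 472, 268 and 538 in the control libraries, a change of -1.53 ± 0.39 (adjusted p = 0.00568). ZEO1, a membrane protein tied to wall signalling, had 7417, 11342 and 11302 normalized counts in the Yb EC50 libraries, against 29547, 15239 and 24012 in the control libraries. In both genes the groups were apart, and control library 2 lay nearest to the Yb EC50 libraries. Others were POP5 of RNase P (-1.08), EXP1, which helps the proton pump leave the endoplasmic reticulum (-1.12), the membrane fusion gene PRM1 (-1.10), the kinetochore genes DAD2 (-1.03) and DAD3 (-1.02), and YBL028C (-1.14). YBR012C (-1.69), YGL072C (-1.05) and YDL085C-A (-1.01) belonged to them too. The calls of DAD2, DAD3, RRT5 (-1.13), SSP1 (-1.08) and YDL085C-A were lost under 1 to 4 alternatives, with adjusted p up to 0.0893.

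Median changes were lower in the classes of short genes. The 200 genes of up to 300 bases had a median change of -0.15 and the 358 genes of 301 to 450 bases -0.13, against -0.02 for the 466 genes over 3000 bases. In the shortest class the median deviations were -0.171, -0.135 and -0.158 in the Yb EC50 libraries and 0.153, -0.074 and -0.036 in the control libraries, so control library 1 stood above the other control libraries. The 14 genes of up to 600 bases among the at least 2-fold falls were chosen as low at Yb EC50. Over them the median difference from the control mean was -1.46, -0.81 and -1.12 at Yb EC50, which that choice makes low. It was also low, at -0.62, in Yb EC10 library 7, against 0.34 and 0.44 in Yb EC10 libraries 8 and 9, and it was -0.03, 0.36 and 0.55 in the La EC50 libraries and 0.28, -0.39 and 0.09 in the control libraries. The part of library make-up in these falls was not tested.

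**Figure D4:**
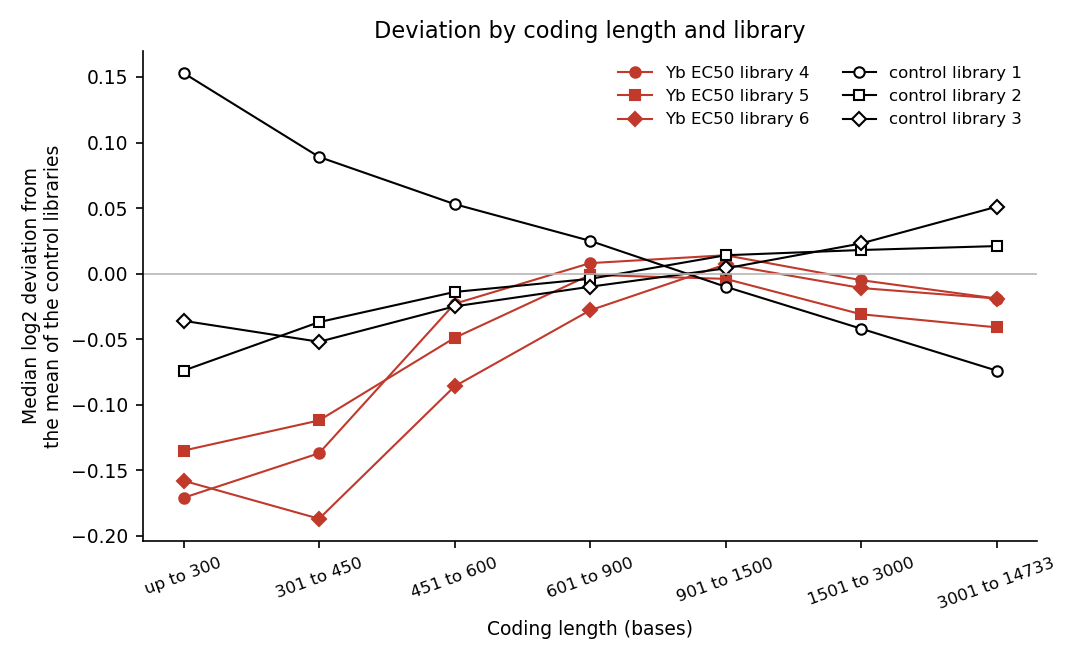
Median log2 deviation from the mean of the control libraries (y axis) by class of coding length in bases (x axis), with a line for each of the 3 Yb EC50 libraries (filled) and 3 control libraries (open). In the class of up to 300 bases the Yb EC50 libraries lie at -0.171, -0.135 and -0.158 and control library 1 at 0.153, and control library 1 drops below 0 in the long classes.

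Part of the cell cycle and pheromone response genes and all tested genes specific to mating type a fell. Of 16 G1 genes 6 fell (1 with equal totals) and 2 rose, SRL3 by 2.25 and PCL1 by 0.27, while CLN3 (0.13) and SIC1 (-0.0019) were not called. Of 22 S phase genes 7 fell (4 with equal totals), RNR1 (-0.49) and CDC45 (-0.49) most, and of 19 mitosis and separation genes 9 fell (4 with equal totals, 5 without control library 2), including the daughter-specific DSE2 (-0.47). Falls made up 37.5% of the G1, 31.8% of the S phase and 47.4% of the mitosis list, against 20.3% of all genes. All 7 mating type a genes fell (median -0.49). The pheromone gene MFA1 had 709.8, 881 and 762 normalized counts in the Yb EC50 libraries, against 1840.0, 1626 and 1238 in the control libraries, apart by -0.99 ± 0.13, and the receptor STE2 fell by 0.49. Of 24 pheromone response genes 14 fell (9 with equal totals), with PRM1 (-1.10) and PRM2 (-1.07) among them, and 4 rose, with PRM5, also a known cell wall integrity target, at 1.59. Of 13 meiotic genes tested 3 rose, IME2 (1.01), HOP1 (0.74) and SPO11 (0.69), a share of 23.1% near that of all genes, and 1 rose with quantile normalization. IME1, which starts meiosis, fell by 0.29, and no gene of the list fell with equal totals.

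**Figure D5:**
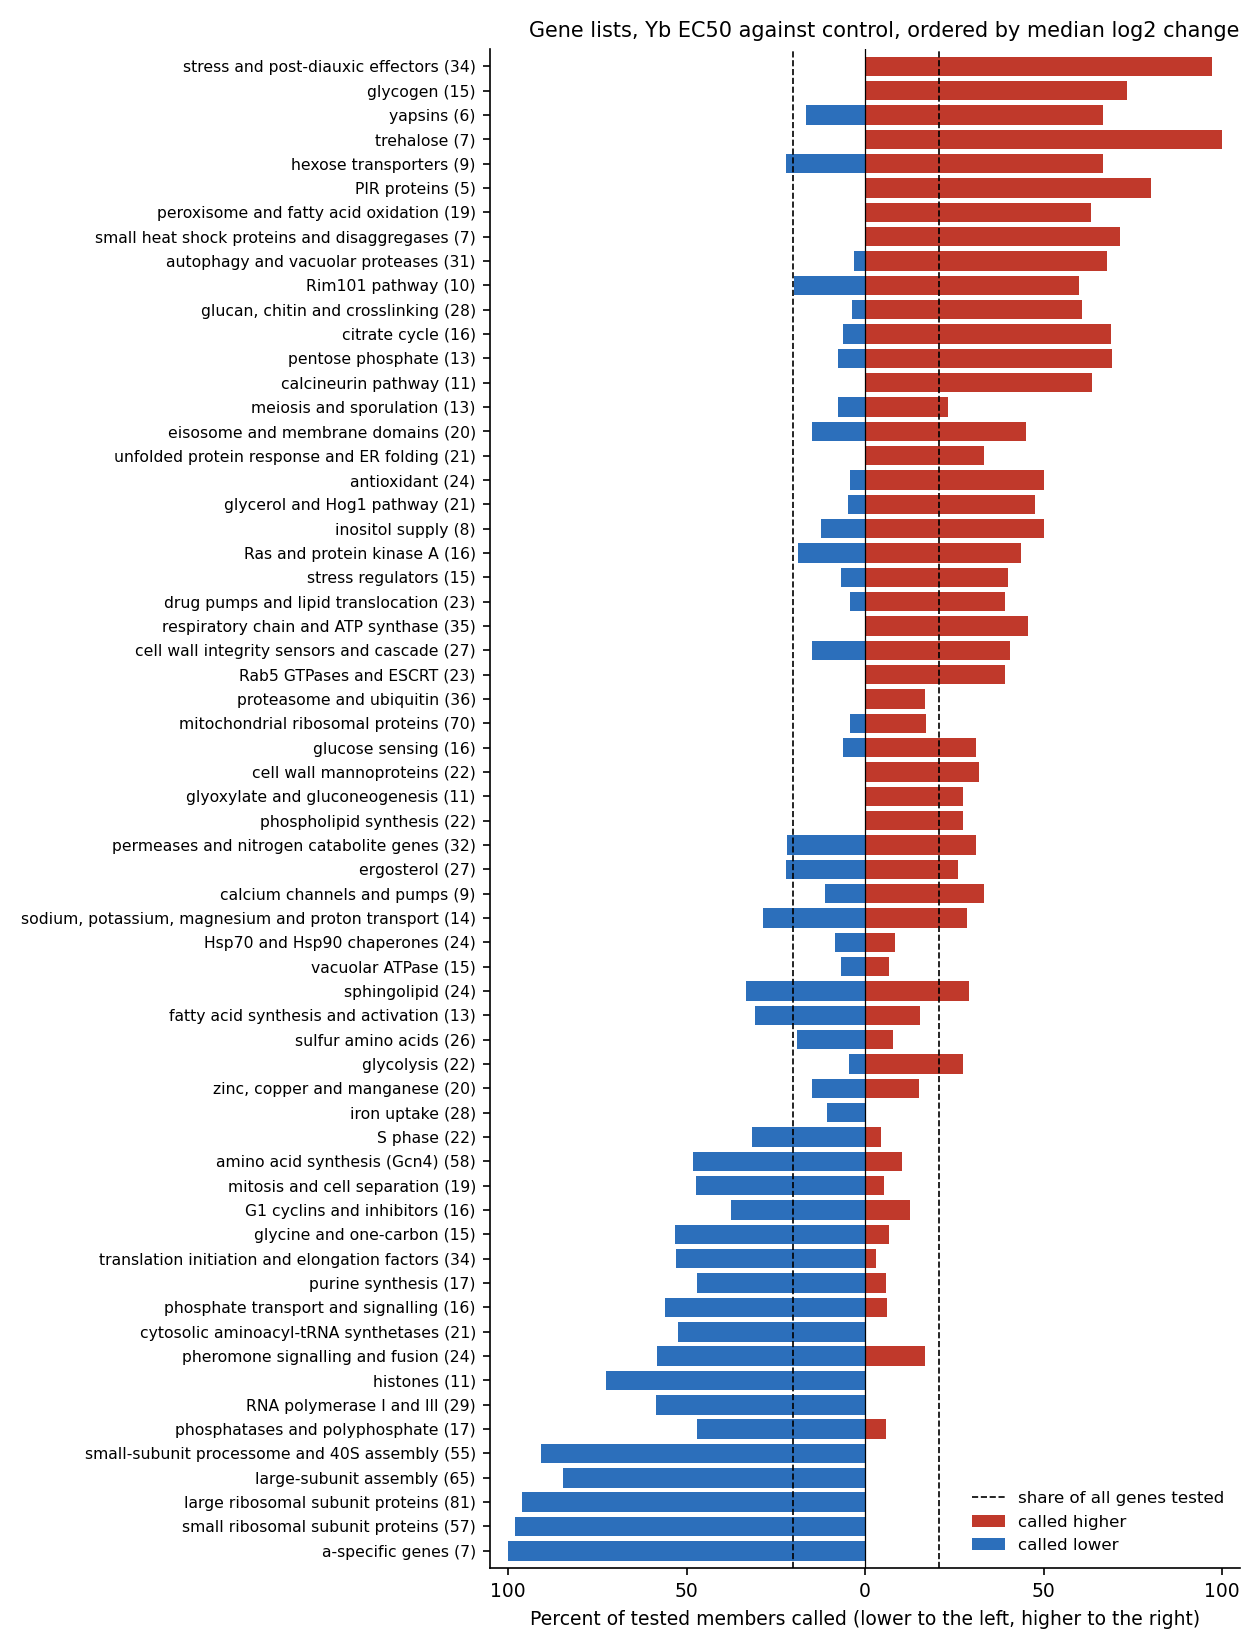
For each gene list (y axis, tested members in brackets, ordered by median log2 change), bars give the percent of tested members called higher at Yb EC50 (right) and lower (left), and dashed lines the shares of all genes tested, 20.6% and 20.3%. Stress effectors, trehalose and glycogen reach far right, and ribosomal protein, ribosome assembly and a-specific genes far left.

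Promoters of genes at least 2-fold higher held AGGGG in 50.2% of 239 cases, against 21.8% of the 5478 promoters of all tested genes, 40.2% of called rises and 14% of called falls. It was present 2 or more times in 13.8% of them. By size of the rise the share was 53.8% of 13 promoters at 8-fold or more, 44.4% of 45 at 4- to 8-fold, 51.4% of 181 at 2- to 4-fold and 37.5% of 903 below 2-fold, against 17.9% of 3214 for genes not called. In the stress effector list 61.8% of promoters held it. The heat shock element GAANNTTC was in 10.5% of promoters of genes at least 2-fold higher, against 12.2% of all, and the Crz1 site GNGGCNCA in 4.18%, against 3.71%. AGGGAT was in 13.8%, against 9.31% of all, TGACTC in 7.53%, against 8.36%, and the SBF site CGCGAAA in 1.26%, against 3.69%.

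Few genes were called between the Yb doses. Between Yb EC50 at 8 µM and Yb EC10 at 6 µM, 61 genes differed (1.10%), 39 higher (0.702%) and 22 lower (0.396%) at Yb EC50, 1 at least 2-fold higher (0.018%) and 9 at least 2-fold lower (0.162%). In that fit 1077 genes had an unadjusted p under 0.05 (limma). The count of called genes was not stable. It was 536 without Yb EC10 library 7, whose place on the leading component (-15.58) was nearest to Yb EC50, and 0 to 4 without any 1 of the other libraries of these groups, with 758 to 1034 genes at an unadjusted p under 0.05. For comparison, limma on these groups alone called 0 genes with 973 at that unadjusted level, edgeR 2 and DESeq2 240. INO1 had 6803, 5920.3 and 5308 normalized counts at Yb EC50, against 4197, 2874 and 3206 at Yb EC10, a difference of 0.82 ± 0.11 (limma, adjusted p = 0.00953). CMK2 was higher by 0.65 and SLT2 by 0.39, while HSP12 (0.92, adjusted p = 0.164) and PIR3 (0.81, adjusted p = 0.0524) did not pass. The genes named on the lower side were short, with coding lengths of 207 to 597 bases, CSN9 at -1.83, YDL085C-A at -1.56, POP5 at -1.33, DAD2 at -1.30, GIM4 of the prefoldin chaperone at -1.20, EXP1 at -1.14, EMC5 at -1.11 and AIM34 at -1.09. A p above the threshold here does not show that the doses act alike.

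Yb and La at the same effect level, but at 8 and 160 µM, differed in 1223 genes (22.0%), 622 higher (11.2%) and 601 lower (10.8%) at Yb EC50, 113 at least 2-fold higher (2.03%) and 69 at least 2-fold lower (1.24%). Of the 34 stress effectors 30 were higher with Yb, by a median of 1.47. RGI2 had 154, 154 and 96.4 normalized counts at Yb EC50, against 2.99, 1.82 and 2.70 at La EC50, a difference of 5.26 ± 0.56 (adjusted p = 7.86e-06). HSP12 had 5034, 3994 and 3314 at Yb EC50, against 212, 154 and 179 at La EC50, a difference of 4.48 ± 0.35. For both genes the metals did not overlap. La EC50 cells minus control cells, which share those controls, gave -0.48 for RGI2 (adjusted p = 0.56) and -0.69 for HSP12 (adjusted p = 0.162), neither called. HXT5 (3.93), YPT53 (4.17), RTA1 (3.76), a lipid exporter family gene, YNL194C (3.56) of the membrane domains, NQM1 (3.45), RTC3 (3.49) and CPP3 (4.003) were also higher with Yb.

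INO1 had 6803, 5920.3 and 5308 at Yb EC50, against 711, 787 and 752 at La EC50, a difference of 2.99 ± 0.11. In the calcium group CMK2 (1.66), ENA1 (1.84) and PMC1 (0.42) were higher with Yb. Of the wall genes SLT2 (-0.10, adjusted p = 0.449) and PIR3 (0.40, adjusted p = 0.163) did not pass, KDX1 was lower with Yb (-0.74), with 748, 743 and 725 at Yb EC50, against 1229.5, 1250.3 and 1221 at La EC50, and of 28 glucan and chitin genes 3 were higher and 10 lower with Yb. Of 15 glycine and one-carbon genes 7 were higher with Yb, SHM2, a serine hydroxymethyltransferase, by 1.15 and GCV2 of glycine cleavage by 0.85. Against control that list was lower with both metals, with a median of -0.23 at Yb EC50 and -0.34 at La EC50. Of 24 Hsp70 and Hsp90 genes 12 were higher with Yb. Their medians against control were -0.03 at Yb EC50 and -0.23 at La EC50. HSP26 differed by 2.13 between the metals. PHO84 (0.04) and PHM6 (-0.25) were not called between the metals. The genes named on the lower side were again short, with coding lengths of 195 to 702 bases, CSN9 (-2.22), EFG1 (-1.73), YDL085C-A (-1.73), ZEO1 (-1.66), POP5 (-1.65), TMA7 (-1.57), URM1 (-1.53), TPM2 (-1.53), EMC6 (-1.50) and CNL1 (-1.50). The metals were given at different doses, and the count was 789 without La EC50 library 12.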

How the data were processed

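RNA of 15 yeast libraries was measured as strand-specific TruSeq RNA-seq, per the labels' protocols. The deposited table gives, for 6600 identifiers, a signal per library: gene counts that the authors divided by a single size factor. The submitters' processing notes name TopHat2 2.1.1, HTSeq 0.6.1p1, FastQC 0.67, DESeq2 1.14.1 and genome build R64, without their roles. For counting, strand setting and treatment of shared reads were not given in the sources used here, so genes that overlap on opposite strands and near-identical copies are uncertain. All values of the Yb and control libraries were whole multiples of 1 read within 0.01. Reads per library differed between replicates by more than sampling noise (chi-square per degree of freedom 4.76 to 10.72 within the compared groups), so none was treated as a duplicate. Read floors cover counting error only.

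Values were taken as log2(normalized count + 1). Groups were compared by contrasts, 2-sided, in limma 3.58.1 under R 4.3.3 with its trend option, all 15 libraries entering the same fit, with Benjamini-Hochberg adjustment over 5559 genes. An exact permutation test of 3 against 3 libraries cannot go below 0.1 and was not used. The RefSeq annotation of R64 matched 5917 of 6600 identifiers and gave coordinates, 1-based, and coding lengths.

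Named genes were the 30 largest rises and 20 largest falls among genes called, at least 2-fold changed, with a mean of at least 50 in the higher group and ranges apart, then up to 8 called members of each list, every member where a pathway is walked through, 10 per direction between metals and doses, the 10 highest levels and all markers. Where the text names fewer than the rule took, the others are covered by the counts. For 1 gene taken by the rule no result is reported here, though the counts include it. Members and 63 lists were chosen with earlier results of these data known. Alternatives were pseudocounts of 0.5 and 5, no filter, a mean of at least 50, equal totals, quantile normalization, the 2 groups alone, each library left out, and edgeR 4.0.16 and DESeq2 1.42.0 on recovered reads of the Yb and control libraries.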

Additional observations from a re-analysis of the deposited data

Results flagged for a closer look

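The responses to the metals at their EC50 differed for 19 genes that the naming rule took in the contrast Yb EC50 minus La EC50, each with a limma adjusted p under 0.05 for that difference and libraries of both groups apart. Higher with Yb on the log2 scale were RGI2 by 5.26, HSP12 by 4.48, YPT53 by 4.17, CPP3 by 4.0, HXT5 by 3.93, RTA1 by 3.76, YNL194C by 3.56, RTC3 by 3.49 and NQM1 by 3.45. Lower with Yb were CSN9 (-2.22), EFG1 (-1.73), YDL085C-A (-1.73), ZEO1 (-1.66), POP5 (-1.65), TMA7 (-1.57), URM1 (-1.53), TPM2 (-1.53), EMC6 (-1.50) and CNL1 (-1.50). TMA7 and CNL1 were not called between Yb EC50 and control cells. Groups of 3 libraries are too small for the search for outlying samples.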

How the results depend on the processing

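The count of 2272 genes called against control was 1514 to 2119 with 1 library left out, lowest without Yb EC50 library 4, when 1500 of the calls kept their direction. Rises were 859 to 1065 and falls 655 to 1054 in those fits. Equal totals gave 1752 rises and 472 falls, and quantile normalization 991 and 1229. edgeR called 992 rises and 1237 falls and DESeq2 984 and 878. For Yb EC50 against Yb EC10 the 61 calls (39 higher, 22 lower) became 25 (19 and 6) without a filter, 202 (138 and 64) with equal totals, 142 (79 and 63) with quantile normalization, 0 with the 2 groups alone (limma, 973 genes at an unadjusted p under 0.05), 2 (2 and 0) with edgeR and 240 (87 and 153) with DESeq2. With 1 library left out they ranged between 0 and 536, higher between 0 and 231 and lower between 0 and 305. For Yb EC50 against La EC50 the 1223 calls became 789 to 1034, with 434 to 544 higher and 342 to 490 lower, when 1 library was left out.

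Of the 49 genes named against control by size, 0 of 29 rises and 5 of 20 falls lost their call somewhere, and none changed direction. List counts stayed within 1.5 times of the reported ones in 922 of 1116 cases. Of the 194 cases that moved more, 130 concerned reported counts of 3 or fewer genes, which are not all repeated in the text. For larger counts against control that the text gives, the moved value stands beside the result, and the cause was not tested. No paired analysis was possible because the column names carry a running number and not the replicate number of the labels. Count tests were not run for La EC50, since whole reads were not claimed for all of its libraries. Depth limits genes near 10 normalized counts most.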

Other observations

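In several systems most genes tested were not called, as was so over all genes, of which 40.9% were called. Of 15 genes of the vacuolar proton pump 1 rose and 1 fell, with a median of -0.04. Of 27 ergosterol genes 7 rose and 6 fell, with ERG3 at -0.55 and ERG11 not called (-0.17). These ergosterol shares of 25.9% and 22.2% were slightly above the 20.6% and 20.3% of all genes. With equal totals 11 rose and 2 fell, without Yb EC50 library 4 the counts were 4 and 3, and edgeR called 4 rises. Of 36 proteasome and ubiquitin genes 6 rose in the fit as deposited, 28 with equal totals, 3 with edgeR or without Yb EC50 library 4, Yb EC50 library 5 or control library 1, and 2 without control library 3, with a median change of 0.08 as deposited and 0.22 with equal totals. Polyubiquitin UBI4 rose by 1.10, and the proteasome activator RPN4 was not called (0.044). In the unfolded protein response 7 of 21 genes rose (33.3%, against 20.6% of all genes). The count was 1 without Yb EC50 library 4 and 13 with equal totals. HAC1 changed by 0.41, and the chaperone gene KAR2 was not called (0.28).

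Sphingolipid genes were divided. Of 24, 7 rose, among them the late steps of inositol-containing sphingolipids SUR1 (1.04) and IPT1 (0.80), the ceramidases YPC1 (0.98) and YDC1 (0.75) and the long-chain base exporter RSB1 (0.89). The 8 falls, among them the ceramide synthase genes LAG1 (-0.32) and LAC1 (-0.26), became 4 without Yb EC50 library 6, 5 without control library 2 and 0 with equal totals. Of 10 genes of the Rim101 pathway 6 rose (3 with quantile normalization), with RIM101 at 0.35. Of 23 drug pump and lipid translocation genes 9 rose, RTA1 by 3.12, the polyamine exporter TPO4 by 2.02 and the multidrug transporter PDR5 by 0.39. SUL1, a sulfate transporter, rose by 1.40, and the methionine synthase MET6 fell by 0.47.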
